A study of Mus musculus with 9 samples.

Results

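Glycolysis and lactate export were followed through 31 genes chosen by symbol: the glucose transporters, the enzymes from hexokinase to pyruvate kinase with their regulators, lactate dehydrogenase, the lactate transporters, the pyruvate dehydrogenase kinases, and 3 genes by which other hexoses enter. They matched 32 of the 16636 rows of the count table, because Aldoa has 2 Ensembl gene IDs, and all 32 rows were among the 14246 tested. The cells were E14 mouse embryonic stem cells, a single established line, grown on fibronectin in serum-free 2i medium. The medium held the MEK inhibitor PD0325901 (1 µM), the GSK3 inhibitor CHIR99021 (3 µM) and LIF, which hold the cells in the naive state. Untreated cells received no siRNA. The siLuc cells received a control siRNA against luciferase, a gene that mouse cells lack, and the siStag3 cells an siRNA against Stag3, which codes for a cohesin subunit. The labels give the genotype as wildtype for the untreated cells and as Stag3 knockdown for the siStag3 cells. Both siRNA groups were transfected with a lipid reagent at seeding and again on the next day, 50 pmol each time, and were treated for 48 h. The untreated cells thus differ from siLuc cells by the transfection as well as by the siRNA. The labels give a number of cells seeded for the siRNA groups only, so cell density and time in culture may differ too. These differences cannot be told apart.

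Glycolysis splits glucose into pyruvate and gains ATP, and lactate dehydrogenase then reduces pyruvate to lactate, which restores NAD+ so that the pathway can go on. Lactate leaves the cell through proton-linked monocarboxylate transporters, and the pyruvate dehydrogenase kinases keep pyruvate out of the mitochondria by switching off pyruvate dehydrogenase. Naive mouse embryonic stem cells are known to use both glycolysis and respiration, while later epiblast-like cells depend more on glycolysis. Most steps have several isoforms, which differ in affinity, regulation and tissue.

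Each group had 3 libraries, with 29332436 to 44527534 counts each, of which the listed genes took 1.13% to 1.52%. The column names give each library a set and an experiment number: every group has 2 libraries of Set 1 (experiments 1 and 3) and 1 of Set 3 (experiment 5, or experiment 1 for siLuc), and neither the names nor the labels explain these numbers. Levels are given as CPM, a count relative to the library's total, scaled by TMM factors, and values of single libraries come in the order Set 1 experiment 1, Set 1 experiment 3, Set 3. Nothing in the labels says that the libraries came from separate cultures, so the p-values measure the spread between these samples, which may be technical. The targeted gene, Stag3, averaged 25.7 ± 2.54 CPM in untreated, 24.2 ± 2.20 in siLuc and 14.8 ± 1.12 in siStag3 cells (mean ± SD, n = 3 each), and fell by 0.71 on the log2 scale in siStag3 against siLuc (SE 0.0722, edgeR adjusted p 0.00205). All 10 markers of naive stem cells were present, summing to 4810 to 5260 CPM per library, while 5 of fibroblasts summed to 1.54 to 2.78 CPM. The 5 markers of primitive endoderm summed to 2.58 to 2.86 CPM in untreated, 2.46 to 2.93 in siLuc and 1.62 to 2.39 in siStag3 libraries. The 4 counted markers of trophoblast summed to 68.4 to 71.3, 69.6 to 72.3 and 60.5 to 64.1 CPM in the same order of groups, mostly from 1 gene, so that for both lists siStag3 lay below the other groups. The 5 markers of formative or primed epiblast summed to 163 to 179 CPM in untreated, 184 to 189 in siLuc and 171 to 174 in siStag3 libraries, also mostly from 1 gene. The part of these lists in the results was not tested. The siStag3 library of Set 3 stood apart: without it, the test of siLuc against untreated passed 2458 genes in place of 598, and that of siStag3 against untreated 1591 in place of 361. Counts of listed genes past the threshold against untreated cells are given below with and without it. Levels, isoform ratios and differences between the sets are given only with it.

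The levels of the steps were compared per length, as CPM per kilobase of the principal transcript. Gapdh, the dehydrogenase that yields NADH, stood highest at 3072 ± 180.4 CPM per kilobase in untreated cells and ranked 7 among 16604 rows. Pyruvate kinase (Pkm), which makes pyruvate and ATP, followed at 654 ± 71.3, and aldolase A (Aldoa), which splits fructose bisphosphate, at 627 ± 35.1, a difference smaller than the spread of Pkm. Below these, Ldhb stood at 433 ± 96.1 and phosphoglycerate mutase (Pgam1) at 353 ± 28.6, again within the spread of Ldhb. Of the first steps, glucose-6-phosphate isomerase (Gpi1) stood at 187 ± 17, Hk1 at 69.9 ± 3.32 and Pfkm at 38.8 ± 6.49. The transporter Slc2a3 stood at 207.3 ± 24.87. Of the later steps, Pgk1 stood at 179.8 ± 27.1, Ldha at 128.7 ± 14.42 and Tpi1 at 113.6 ± 17.65, so the levels did not rise evenly along the pathway. The lowest of all was the lactate transporter Slc16a3, at 0.191 ± 0.129, rank 13199. It was counted in every untreated library, with 16 to 68 reads. Several of these levels are uncertain, because the transcripts share 31-base stretches with other genes. The shared part was 62.6% for Gapdh, 42.1% for Pgam1, 34.8% for Pkm, 33% for Ldhb, 31.4% for Gpi1 and 22.3% for Ldha. It was 0% for Slc2a3, Hk1 and Slc16a3. How the counting divided such reads is not known, and the shares and ratios of Ldhb and Ldha below rest on the same counts.

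**Figure D1:**
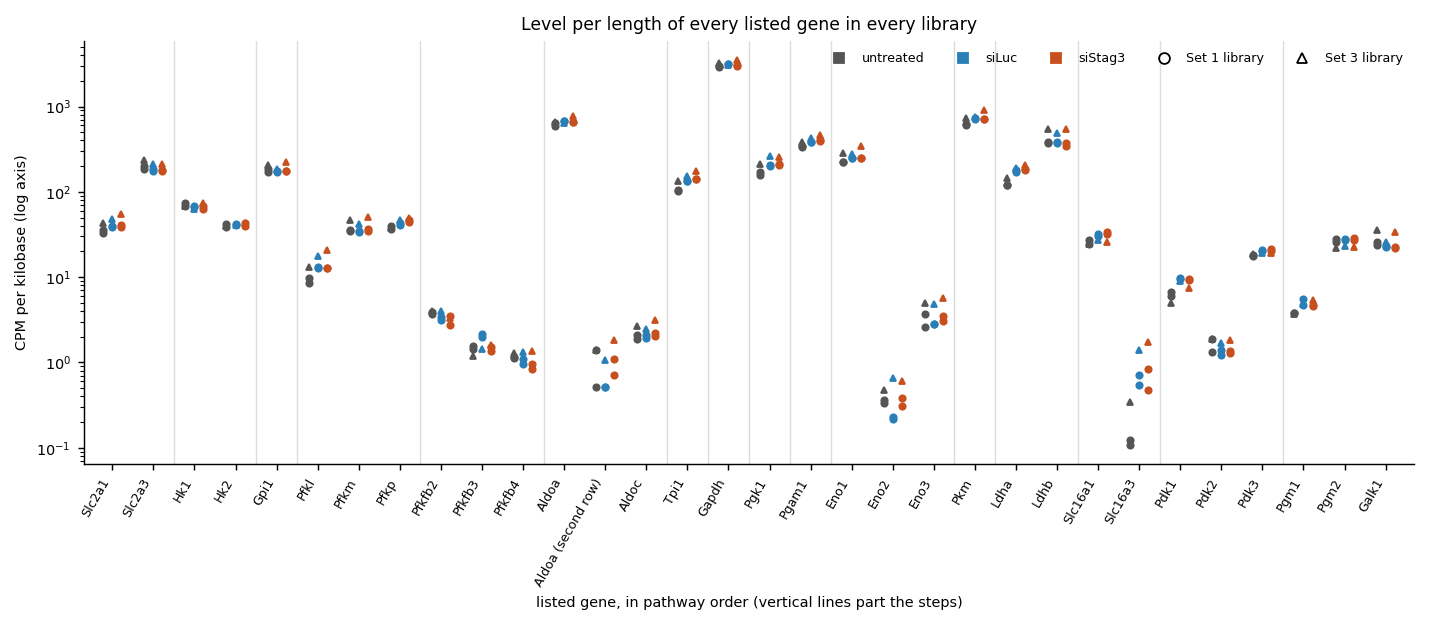
CPM per kilobase (log axis) of the 32 rows in pathway order, in each of the 9 libraries, coloured by group and shaped by set. Gapdh lies highest and Slc16a3 lowest in untreated cells, and Slc16a3 is the row whose siRNA libraries stand farthest from its untreated ones.

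In most steps 1 isoform held most of the transcripts per length. Slc2a3, the high-affinity transporter GLUT3, made up 84.9% ± 0.234 of the glucose transporter transcripts of untreated cells, Aldoa 99.6% ± 0.0537 of the aldolases, Eno1 98.4% ± 0.3 of the 3 listed enolases (Eno1b, which is not listed, left out) and Slc16a1, the broadly expressed lactate transporter MCT1, 99.2% ± 0.526 of the lactate transporters (mean ± SD, n = 3). Hk1 held 63.7% ± 0.685 against Hk2. Ldhb, the form that favours oxidation of lactate, held 76.8% ± 1.83, and Pdk3 70.4% ± 2.44 of the 3 kinases. The muscle and platelet phosphofructokinases Pfkm and Pfkp shared their step almost evenly, 44.2% ± 3 and 43.9% ± 4.48. Their order depended on the transcript length used: Pfkp held 62.4% with the median length of the protein-coding transcripts, and Pfkm 57.3% with the longest transcript. Pfkfb2, a kinase-phosphatase that sets the level of the allosteric activator of phosphofructokinase, held 59.9% ± 1.96 of its family of 3.

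The leading isoforms from Slc2a3 to Galk1, whose levels follow, passed the test in none of the 3 comparisons, although Aldoa, Eno1, Pkm, Slc16a1 and Pfkfb2 passed in 1 or 2 of them with the correction for GC content given further on. Slc2a3 was at 791, 741 and 931 CPM in untreated, 700.3, 725 and 838 in siLuc and 699, 716 and 847 in siStag3 libraries, and the groups overlapped. Hk1, which phosphorylates glucose, was at 284, 263 and 261 CPM in untreated, 255, 260.1 and 240.4 in siLuc and 265, 241 and 282 in siStag3 libraries. Gpi1 was at 534, 494 and 591 CPM in untreated, 494, 502 and 538 in siLuc and 508, 504 and 646 in siStag3 libraries. The siLuc libraries of Hk1 lay just below the untreated ones, while its siStag3 libraries overlapped them, and for Gpi1 all groups overlapped. Pfkm was at 103, 99.3 and 133 CPM in untreated, 98.8, 96.3 and 119.7 in siLuc and 107, 101 and 147 in siStag3 cells. Pfkfb2 was at 16.5, 17.1 and 17.8 CPM in untreated, 15, 13.9 and 17.5 in siLuc and 12, 15.4 and 14.7 in siStag3 libraries. For Pfkm the Set 3 library was the highest of each group, and for Pfkfb2 the 3 siStag3 libraries lay below all untreated ones, with a log2 difference of -0.29 (SE 0.0946, adjusted p 0.132) that did not pass the test.

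Aldoa, of the lower part of the pathway, was at 959, 889 and 993 CPM in untreated, 1023, 1023 and 976 in siLuc and 997, 990.4 and 1164 in siStag3 libraries. Gapdh was at 4182, 4248 and 4655 CPM in untreated, 4501, 4431 and 4301 in siLuc and 4235, 4394 and 4992 in siStag3 libraries. Pkm was at 1525, 1458 and 1787 CPM in untreated, 1764, 1748 and 1831 in siLuc and 1715, 1732 and 2197 in siStag3 libraries. In these 3 genes the groups overlapped, and the Set 3 siStag3 library was the highest of all 9. Eno1, which makes phosphoenolpyruvate, was at 458, 453 and 581 CPM in untreated, 500.5, 509.7 and 564 in siLuc and 499, 510.2 and 707 in siStag3 libraries, but 52.3% of its 31-base stretches also occur in Eno1b, whose own row averaged 1083 ± 87.2 CPM in untreated cells. How the counting divided the reads of this pair is not known, so the level of Eno1 is uncertain.

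The genes that leave glycolysis for lactate or keep pyruvate from the mitochondria are represented by Ldhb, Slc16a1 and Pdk3 as the leading forms. Ldhb was at 487, 497 and 709 CPM in untreated, 501, 489 and 644 in siLuc and 453, 486 and 704 in siStag3 libraries. Slc16a1 was at 108, 119.5 and 109 CPM in untreated, 140.1, 135 and 119 in siLuc and 143, 149 and 113 in siStag3 libraries. Pdk3 was at 37, 38.7 and 39.9 CPM in untreated, 42.7, 44.6 and 40.8 in siLuc and 44.7, 42.6 and 40.8 in siStag3 libraries. All siRNA libraries of Pdk3 lay above the untreated ones by a small amount, those of Slc16a1 lay above in Set 1 but reached into the untreated range in Set 3, and those of Ldhb were parted by set and not by group. Galk1, which phosphorylates galactose, was at 36.3, 33.2 and 49.8 CPM in untreated, 31.6, 32.2 and 36.6 in siLuc and 31.1, 31.5 and 47.8 in siStag3 libraries, again with the highest values in Set 3. Galk1 led the genes of hexose entry only with the principal or the longest transcript, at 49% ± 7.91 against 44.4% ± 7.5 for Pgm2. With the median length Pgm2 led, 56.9% to 38.2%.

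The remaining isoforms that passed in no comparison are given by their range over the 9 libraries. Hk2, the insulin-responsive hexokinase, lay between 210.9 and 238.4 CPM, and Pgm2 between 52.3 and 67.7. Aldoc, the brain form of aldolase, lay between 5.22 and 8.88, Eno3 between 4.05 and 8.91, and Eno2 between 0.605 and 1.86. Pfkfb4 lay between 2.93 and 4.72 and Pdk2 between 2.77 and 4.26. For Aldoc, Eno3 and Pfkfb4 the highest library was the siStag3 library of Set 3. The log2 differences of these 7 genes from untreated cells lay between -0.25 and 0.05 in siLuc and between -0.19 and 0.16 in siStag3.

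The first comparison, siLuc against untreated, sets cells transfected with a control siRNA against cells that received no siRNA. The lactate exporter Slc16a3, the lactate-making subunit Ldha, the pyruvate dehydrogenase kinase Pdk1 and 4 enzymes were higher in the transfected cells. Of the 32 rows, 7 rose and 0 fell at an adjusted p under 0.05: Slc16a3, Ldha, Pdk1, Pfkl, Pgk1, Tpi1 and Pgm1. Among all tested genes 1.65% rose and 2.55% fell. The median log2 fold change was 0.07 over the 32 rows and -0.00 over all tested genes. A positive value was held by 19 rows and by 7059 of the 14246 tested genes. At an unadjusted p under 0.05, 14 rows were higher and 2 lower (Slc2a3 and Galk1), and the DESeq2 Wald test passed 10 higher and 0 lower. DESeq2 also passed more of all genes than edgeR did in this comparison, as given at the end. For the unadjusted counts of the 3 comparisons between groups, with and without the set term, the share of all tested genes is not given. They therefore cannot be read against a background. All 7 had the same sign within Set 1 and within Set 3, as did 25 of all 32 rows. Both sets entered the fit that chose the 7, so their signs are no separate support.

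Slc16a3 codes for MCT4, the low-affinity lactate exporter of strongly glycolytic cells. It was at 0.533, 0.473 and 1.47 CPM in untreated, 3.12, 2.35 and 6.08 in siLuc and 3.62, 2.05 and 7.49 in siStag3 libraries, always with the Set 3 library highest. All siRNA libraries lay above all untreated ones. The log2 fold change was 2.24 (SE 0.225, adjusted p 0.000335) in siLuc against untreated, a 4.73-fold rise, with 2.40 within Set 1 and 2.03 within Set 3. Even so, Slc16a3 stayed a minor transporter, going from 0.753% ± 0.526 of the lactate transporter transcripts to 2.97% ± 1.73 in siLuc cells. These shares depend on the transcript length: with the median length they were 1.98% and 7.48%, and 8.46% in siStag3 cells. Slc16a1 had a log2 difference of 0.22 (SE 0.0684, adjusted p 0.072), which did not pass the test.

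Ldha codes for the lactate dehydrogenase subunit that favours the making of lactate. It was at 215, 210.5 and 257 CPM in untreated, 316, 304 and 337 in siLuc and 317, 323 and 368 in siStag3 libraries, and no siRNA library overlapped the untreated ones. It rose by a log2 fold change of 0.49 (SE 0.0534, adjusted p 0.000393) in siLuc against untreated. Ldhb, its partner subunit, had a value of -0.04 (SE 0.0577, adjusted p 0.69). Pdk1, the kinase of pyruvate dehydrogenase that is induced in low oxygen, was at 31.6, 35.1 and 26.1 in untreated, 50.7, 49.1 and 46.6 in siLuc and 49.8, 47.4 and 39.1 in siStag3 libraries. These groups did not overlap either, and here Set 3 was the lowest of each group. Pdk1 rose by 0.67 (SE 0.0725, adjusted p 0.000393), while its paralogs Pdk3, at 0.15 (adjusted p 0.164), and Pdk2, at -0.25 (adjusted p 0.291), did not pass.

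In the middle of the pathway, the liver phosphofructokinase Pfkl was at 36.3, 31.7 and 49.6 CPM in untreated, 48.6, 48.2 and 65.6 in siLuc and 47.5, 47.3 and 76.6 in siStag3 libraries. The untreated Set 3 library reached the range of the siRNA libraries of Set 1, so the groups overlapped, but within each set every siRNA library was the higher. Pfkl rose by 0.47 (SE 0.0712, adjusted p 0.00323). Triose phosphate isomerase (Tpi1), which interconverts the products of aldolase, was at 168, 165 and 215 CPM in untreated, 214, 213 and 247 in siLuc and 225, 228 and 282 in siStag3 libraries. Phosphoglycerate kinase (Pgk1), the first step that gains ATP, was at 288, 314 and 383 CPM in untreated, 380.1, 367 and 479.5 in siLuc and 378, 390.1 and 463 in siStag3 libraries. Both showed the same arrangement, with siRNA above untreated in each set. Tpi1 rose by 0.31 (SE 0.0538, adjusted p 0.0083) and Pgk1 by 0.32 (SE 0.0546, adjusted p 0.00751). Pgk1 shares 68.2% of its 31-base stretches with the retrogene Pgk1-rs7, which has no row in the table. Tpi1 and Pgm1 overlap other counted genes on the opposite strand (Spsb2 and Itgb3bp), as Pfkp does Pitrm1, and whether the counting used the strand is not given in the sources used here.

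Among the genes of hexose entry, phosphoglucomutase Pgm1, which links glycogen and galactose to glucose 6-phosphate, was at 9.03, 8.92 and 8.82 CPM in untreated, 11.1, 13.2 and 11.5 in siLuc and 11.2, 11 and 12.9 in siStag3 libraries. The siRNA libraries lay above all untreated ones. It rose by 0.42 (SE 0.0981, adjusted p 0.0341) in siLuc against untreated, close to the threshold, and the call was lost without any 1 of 7 libraries, with adjusted p up to 0.142 without the untreated Set 3 library. Its paralog Pgm2 had 0.04 (SE 0.0581, adjusted p 0.696) and Galk1 -0.23 (SE 0.0826, adjusted p 0.104). The 25 rows that did not pass lay between -0.68 and 0.40, the lower end being the second Aldoa row, which has 12 to 48 counts per library.

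No listed gene passed in the fit without the set term, where the smallest adjusted p was 0.242 (Pdk1) and 8 rows had an unadjusted p under 0.05. Without the siStag3 library of Set 3, which is in neither group compared, 13 rows rose and Galk1 fell. That library enters through the common estimate of the spread and of the sets, the low-count filter, the scaling and the adjustment over all genes. Leaving out the siLuc library of Set 1 experiment 1 took Tpi1 to an adjusted p of 0.0565, and leaving out the untreated Set 3 library took Pgk1 to 0.0524.

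**Figure D2:**
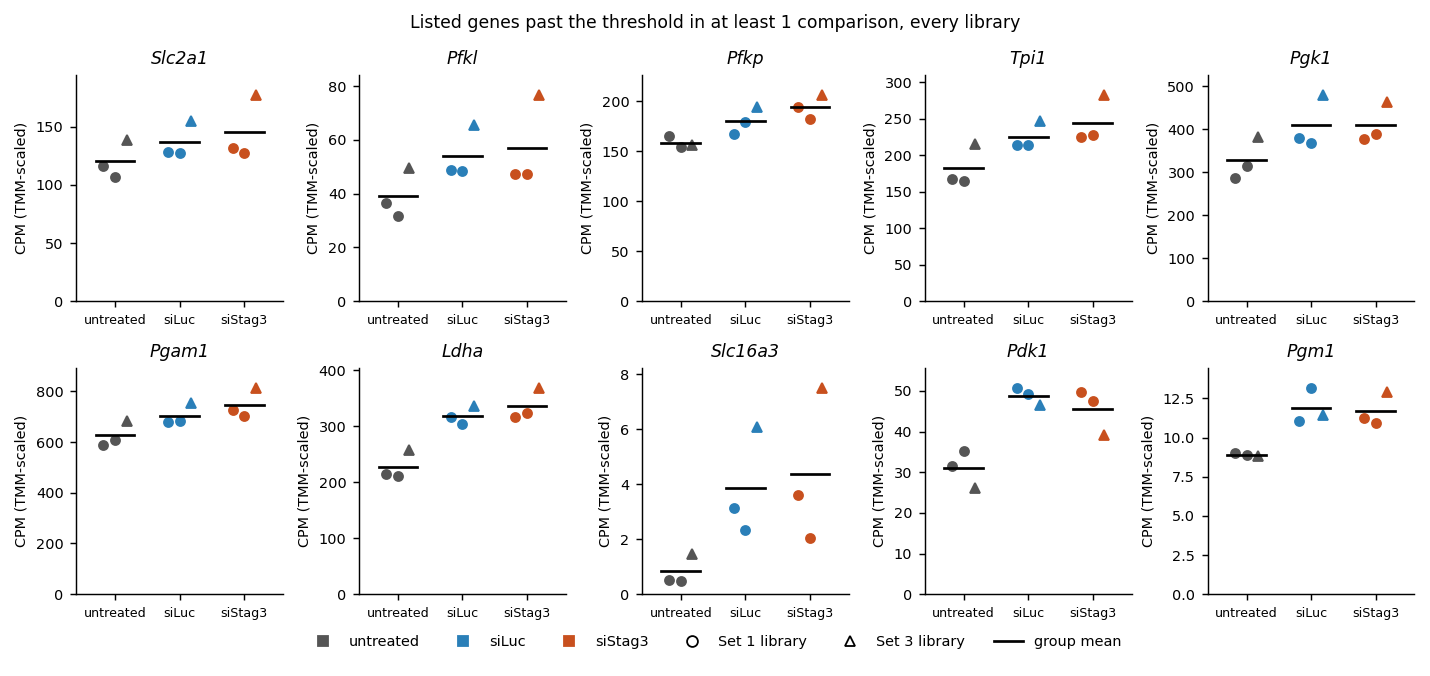
TMM-scaled CPM of the 10 listed genes that passed the threshold in at least 1 comparison, with 1 point per library (circles Set 1, triangles Set 3) and a bar at the mean of each group of 3. The siLuc and siStag3 points lie above the untreated points of the same set in all 10 genes, and the Set 3 point is the highest of its group in most genes but the lowest in Pdk1.

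The second comparison, siStag3 against untreated, holds the same untreated libraries, so its values are not independent of the first. Here 9 of the 32 rows rose and 0 fell: Slc16a3, Ldha, Pdk1, Pfkl, Tpi1, Pgk1, Pgam1, Pfkp and Slc2a1. Among all tested genes 1.07% rose and 1.46% fell. The median log2 fold change was 0.14 over the 32 rows and -0.01 over all tested genes. A positive value was held by 25 rows and by 6926 of the 14246 tested genes. At an unadjusted p under 0.05, 15 rows were higher and 2 lower (Slc2a3 and Pfkfb2), and the DESeq2 Wald test passed 12 higher and 0 lower. The matching counts over all tested genes are not given here, so neither can be read against a background. All 9 had the same sign within both sets, as did 27 of all 32 rows, and both sets entered the fit that chose the 9.

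The largest value was again that of Slc16a3. Slc16a3 rose by 2.40 (SE 0.222, adjusted p 9.96e-05), 5.29-fold, with 2.41 within Set 1 and 2.33 within Set 3. Ldha rose by 0.57 (SE 0.0534, adjusted p 9.96e-05) and Pdk1 by 0.56 (SE 0.0726, adjusted p 0.00112), both close to the 0.53 of Pfkl. The differences of the other forms of these steps did not pass: 0.25 for Slc16a1 (adjusted p 0.0721), -0.05 for Ldhb (adjusted p 0.699), 0.15 for Pdk3 (adjusted p 0.269) and -0.19 for Pdk2 (adjusted p 0.522). Slc16a3 reached 3.42% ± 2.6 of the lactate transporter transcripts, and Ldha 31.6% ± 3.31 of the lactate dehydrogenase transcripts against 23.2% ± 1.83 in untreated cells.

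Upstream, Pfkl rose by 0.53 (SE 0.0712, adjusted p 0.00138) and Tpi1 by 0.43 (SE 0.0538, adjusted p 0.00092). Pgk1 rose by 0.33 (SE 0.0546, adjusted p 0.00633). Pfkp, the platelet phosphofructokinase, was at 165, 154 and 156 CPM in untreated, 167, 179 and 194 in siLuc and 194, 182 and 206 in siStag3 libraries. The siStag3 libraries of Pfkp lay above all untreated ones, and it rose by 0.29 (SE 0.0619, adjusted p 0.0241), where siLuc gave 0.18 (SE 0.0619, adjusted p 0.0905). Pgam1 was at 588, 606 and 683 CPM in untreated, 678, 682 and 752 in siLuc and 727, 703 and 812 in siStag3 libraries, and rose by 0.26 (SE 0.0496, adjusted p 0.0143), where siLuc gave 0.17 (SE 0.0496, adjusted p 0.0633). The siStag3 libraries of Pgam1 did not overlap the untreated ones, but 42.1% of its 31-base stretches occur in other genes.

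Slc2a1, the basal glucose transporter GLUT1, was at 116, 106 and 139 CPM in untreated, 128, 127 and 155 in siLuc and 132, 128 and 177 in siStag3 libraries. The untreated Set 3 library lay above both siStag3 libraries of Set 1, so the groups overlapped, while within each set siStag3 was the higher. It rose by 0.27 (SE 0.0586, adjusted p 0.0275), where siLuc gave 0.19 (SE 0.0587, adjusted p 0.0744). Slc2a3, the more abundant transporter, had -0.12 (SE 0.0516, adjusted p 0.254). Pgm1 had 0.39 (SE 0.0983, adjusted p 0.0528), which did not pass. That a gene passed in 1 comparison and not in the other does not show that the siRNAs differed for it, and the direct test is given next. The 23 rows that did not pass lay between -0.29 (Pfkfb2) and 0.39 (Pgm1).

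Without the set term no row passed here either, with a smallest adjusted p of 0.168 (Ldha) and 11 rows at an unadjusted p under 0.05. Without the siStag3 library of Set 3, 10 rows rose and 0 fell, while without the untreated library of Set 3, or the siStag3 library of Set 1 experiment 1, the count was 5 each time: Slc16a3, Ldha, Pdk1, Pfkl and Tpi1. Slc2a1 then had adjusted p-values of 0.178 and 0.136, Pfkp of 0.187 and 0.149, Pgam1 of 0.0875 and 0.116, and Pgk1 of 0.0515 and 0.0524. The untreated library of Set 1 experiment 3 also carried the calls of Slc2a1 (0.112 without it) and Pfkp (0.0837), and the siLuc library of Set 1 experiment 1 that of Slc2a1 (0.0502).

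**Figure D3:**
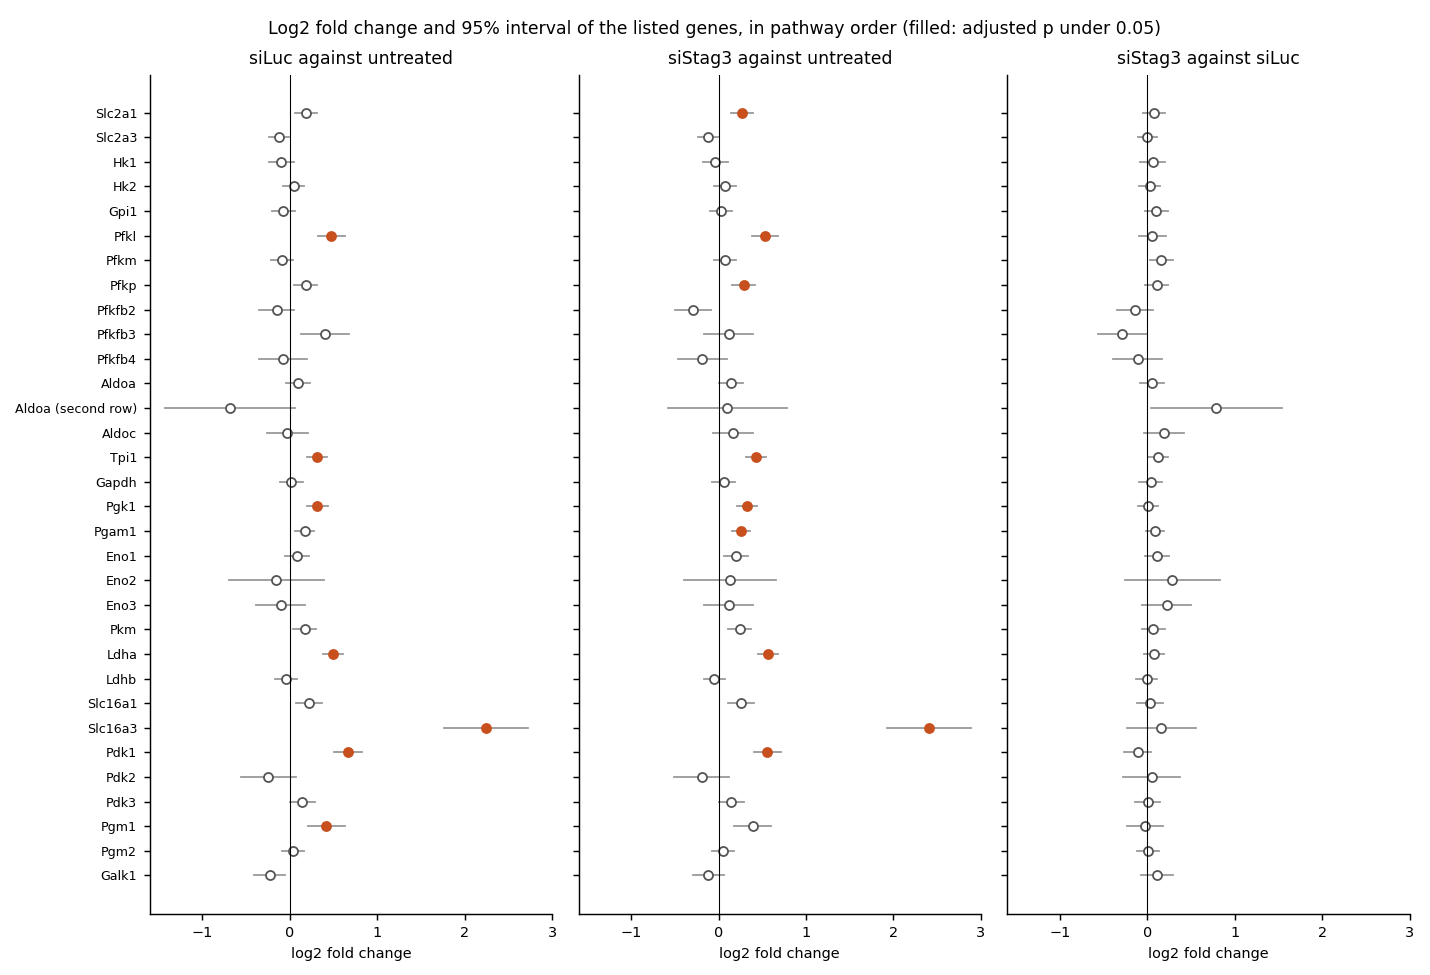
Log2 fold change of the 32 rows with its 95% interval in the 3 comparisons, in pathway order, filled where the adjusted p is under 0.05. Slc16a3 stands farthest right in both comparisons with untreated cells, at 2.24 and 2.40, and no row is filled in siStag3 against siLuc.

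The third comparison, siStag3 against siLuc, sets the knockdown against the control siRNA. 0 of the 32 rows passed by edgeR and 0 by the DESeq2 Wald test, where 0.014% of all tested genes rose and 0.014% fell. At an unadjusted p under 0.05, 3 rows were higher (Pfkm, Tpi1 and the second Aldoa row) and 1 was lower (Pfkfb3). The median log2 fold change was 0.06 over the 32 rows and -0.00 over all tested genes. A positive value was held by 25 rows and by 6887 of the 14246 tested genes. The intervals were narrow for the abundant genes. The log2 difference was 0.07 (95% interval -0.04 to 0.19) for Ldha, -0.11 (95% interval -0.26 to 0.04) for Pdk1 and 0.08 (95% interval -0.05 to 0.21) for Slc2a1. For Slc16a3 it was 0.16 (95% interval -0.24 to 0.56), a wider range around a value far smaller than its rise over untreated cells. Pfkfb3, the kinase with the strongest activity for making the activator of phosphofructokinase, had -0.29 (95% interval -0.56 to -0.01): it was at 7.21, 6.74 and 5.5 CPM in untreated, 9.87, 9.24 and 6.68 in siLuc and 7.08, 6.39 and 7.46 in siStag3 libraries, with the Set 1 siLuc libraries the highest.

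The balance of isoforms within a library does not depend on the scaling between libraries, and was followed for 8 pairs in 3 comparisons, 24 tests in all. With 3 against 3 libraries the exact two-sided permutation test cannot go below 0.1, so no ratio could pass, and the smallest p adjusted over the 24 tests was 0.267. The log2 ratio of Ldhb to Ldha per length was 1.73 ± 0.151 in untreated, 1.20 ± 0.148 in siLuc and 1.12 ± 0.225 in siStag3 cells. Its differences from untreated, -0.53 and -0.62, had non-overlapping groups and an exact p of 0.1. The ratio of Slc16a3 to Slc16a1 went from -7.26 ± 0.944 to -5.18 ± 0.813 and -5.10 ± 1.14, also without overlap (exact p 0.1 each). For Slc2a3 to Slc2a1 the values were 2.49 ± 0.0263, 2.18 ± 0.0419 and 2.10 ± 0.117, and for Pdk1 to Pdk3 -1.62 ± 0.252, -1.10 ± 0.0536 and -1.21 ± 0.124, again without overlap with untreated (exact p 0.1 each). In each of these 4 pairs the form that was minor in untreated cells held a larger share in each of the 6 siRNA libraries than in any untreated one. These 4 of the 8 pairs were picked for their lack of overlap. Each holds a gene that passed in a comparison above (Ldha, Slc16a3, Slc2a1 or Pdk1), so the ratios are no separate result. How often other pairs of genes part in this way was not counted. The ratio of Hk2 to Hk1 was higher by 0.14 in siLuc (exact p 0.1) and by 0.11 in siStag3 (exact p 0.2, groups overlapping), while for Pfkp to Pfkl, Aldoc to Aldoa and Eno2 to Eno1 the groups overlapped in every comparison. No pair had non-overlapping groups in siStag3 against siLuc.

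**Figure D4:**
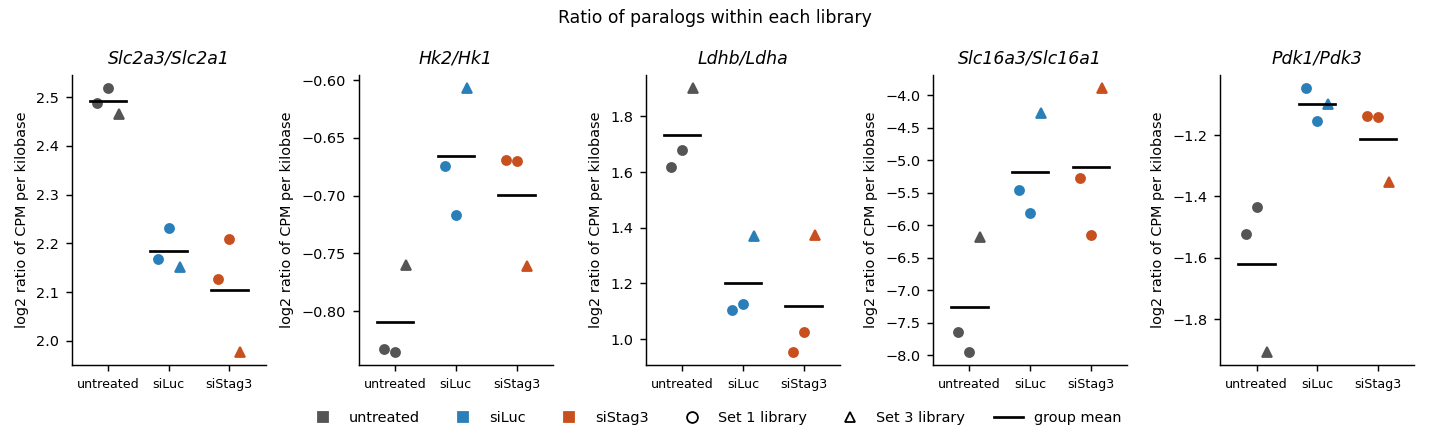
Log2 ratio of CPM per kilobase for 5 pairs of paralogs, 1 point per library (circles Set 1, triangles Set 3) and a bar at the mean of each group of 3. In Slc2a3/Slc2a1 and Ldhb/Ldha both siRNA groups lie below the untreated libraries, and in Slc16a3/Slc16a1 and Pdk1/Pdk3 both lie above them.

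The same genes also differed between the sets. In the fit with the set term, 20 of the 32 rows were higher in Set 3 than in Set 1 and 3 were lower, where 21.4% of all tested genes were higher and 21.2% lower, and the median log2 difference was 0.24 over the rows against 0.00 over all genes. Slc16a3 had the largest, 1.33 (SE 0.167, adjusted p 5.94e-05), followed by the neuronal enolase Eno2 at 0.92, the second Aldoa row at 0.83 and the muscle enolase Eno3 at 0.74. Pfkl differed by 0.56, Ldhb by 0.50 and Ldha by 0.20. Slc16a1, at -0.21, Pdk1, at -0.25, and Pgm2, at -0.29, were lower in Set 3. The listed transcripts had a median GC content of 53.8% against 50.3% over the tested genes, and with a correction for GC content 18 rows were higher and 4 lower, with a median of 0.17, where 20.4% of all tested genes were higher and 20.8% lower, with a median of 0.00. For Slc16a1 the set difference then went to -0.01 (adjusted p 0.86). What else parted the sets was not tested. Between groups the same correction passed 14 listed rows higher and 0 lower in siLuc against untreated, where 3.01% of all tested genes rose and 3.59% fell. The 7 rows gained were Slc2a1, Pfkp, Pfkfb3, Aldoa, Pgam1, Eno1 and Pkm. In siStag3 against untreated it passed 14 higher and 1 lower, where 3.39% of all tested genes rose and 3.55% fell, gaining Aldoa, Eno1, Pkm, Slc16a1 and Pgm1 as higher and Pfkfb2 as lower. All tested genes gained more in proportion there, from 153 to 483 rises, than the listed rows, from 9 to 14. In siStag3 against siLuc 0 listed rows passed.

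Within each set the genes that passed against untreated cells were higher, but both sets entered the fit that chose them. In siLuc against untreated, Pdk1 gave 0.58 within Set 1 and 0.84 within Set 3, Ldha 0.54 within Set 1 and 0.39 within Set 3 and Pfkl 0.51 within Set 1 and 0.40 within Set 3. Pgk1 gave 0.32 within Set 1 and 0.32 within Set 3, and Tpi1 0.36 within Set 1 and 0.20 within Set 3. Eno2, a gene at about 1 CPM, turned its sign, with -0.65 within Set 1 and 0.49 within Set 3. A test of the difference between the sets passed for 0 of the 32 rows in each comparison, at unadjusted p under 0.05 for 2 rows in siLuc against untreated (Eno2 and Galk1), 2 in siStag3 against untreated (Pfkfb3 and Slc16a1) and 8 in siStag3 against siLuc. The 8 were Hk1, Gpi1, Pfkfb3, Aldoa, Gapdh, Eno1, Pkm and Galk1, and 21.6% of all tested genes (3083 of 14246) also had an unadjusted p under 0.05 there, with 160 past the adjusted threshold, so 8 of 32 rows is near the background. Set 3 has 1 library per group. For Pkm the difference between siStag3 and siLuc was -0.03 within Set 1 and 0.26 within Set 3, for Eno1 -0.00 within Set 1 and 0.33 within Set 3, and for Pfkfb3, which turned its sign, -0.50 within Set 1 and 0.16 within Set 3.

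**Figure D5:**
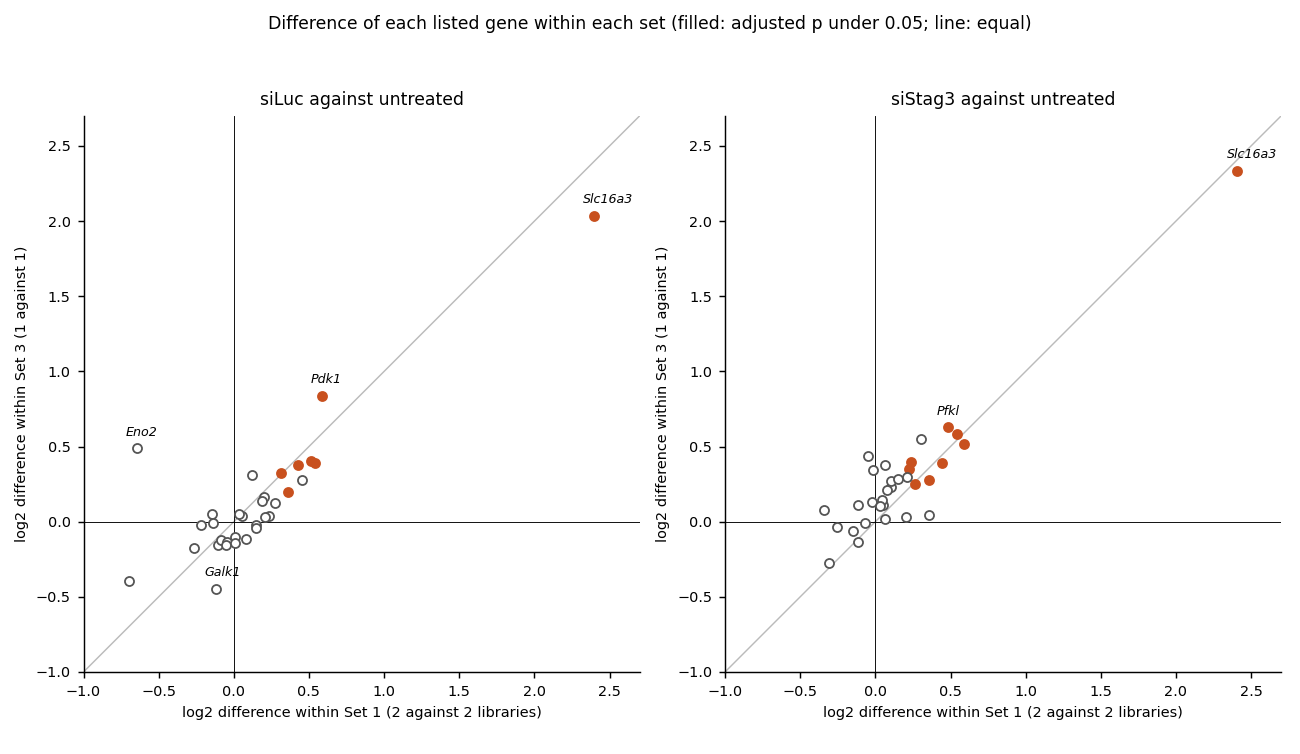
Log2 difference of each of the 32 rows within Set 1 (2 against 2 libraries) and within Set 3 (1 against 1), for siLuc and siStag3 against untreated, with a line of equal values. The filled points, which passed the threshold in a fit over both sets, lie above 0 on both axes in both panels. Slc16a3 lies at 2.40 and 2.03 on the left and at 2.41 and 2.33 on the right.

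Many of the listed genes, among them Slc2a1, Slc2a3, Hk2, Pfkfb3, Pfkfb4, Aldoc, Pgk1, Ldha, Slc16a3 and Pdk1, are textbook targets of the hypoxia-inducible factors. Of these 10, named after their values were seen, 5 passed in at least 1 comparison with untreated cells. The 5 that passed in neither were Slc2a3 (-0.12 and -0.12 in siLuc and siStag3), Hk2 (0.05 and 0.07), Pfkfb3 (0.40 and 0.12), Pfkfb4 (-0.07 and -0.19) and Aldoc (-0.03 and 0.16). Of all 31 listed genes 10 passed in at least 1 comparison, while 1.65% and 1.07% of all tested genes rose in siLuc and siStag3. The named targets were picked with the values known, so their count is no separate result. The factors bind a core of ACGTG or GCGTG, and the palindrome CACGTG, which contains ACGTG on either strand, is the E-box of MYC. The 250 bases before the start were searched on both strands for these letters in the promoters of the 30 listed genes found in RefSeq for GRCm38.p6 (Slc2a3 was not analysed here). The windows of 4 genes are printed, 5′ to 3′ on the strand of the gene, with each ACGTG, or its reverse complement CACGT, in capitals: the 3 genes with the motif that rose against untreated cells in both comparisons, and Slc16a1 as the sister of Slc16a3 that did not pass. Their coordinates are chr11:120948817-120949066 (plus strand), chr7:46845554-46845803 (plus strand, the first of 2 starts), chrX:106186850-106187099 (plus strand) and chr3:104638414-104638663 (plus strand).
Slc16a3: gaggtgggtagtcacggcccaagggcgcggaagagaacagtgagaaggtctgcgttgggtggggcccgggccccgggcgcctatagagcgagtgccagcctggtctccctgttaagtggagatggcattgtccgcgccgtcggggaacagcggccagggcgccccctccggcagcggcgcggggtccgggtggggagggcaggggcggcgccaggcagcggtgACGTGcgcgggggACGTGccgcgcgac
Ldha: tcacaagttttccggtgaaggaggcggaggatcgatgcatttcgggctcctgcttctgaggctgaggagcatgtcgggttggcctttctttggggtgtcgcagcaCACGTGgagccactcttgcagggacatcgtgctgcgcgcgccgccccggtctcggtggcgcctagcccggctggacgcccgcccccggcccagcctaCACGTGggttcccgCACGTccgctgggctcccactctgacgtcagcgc
Pgk1: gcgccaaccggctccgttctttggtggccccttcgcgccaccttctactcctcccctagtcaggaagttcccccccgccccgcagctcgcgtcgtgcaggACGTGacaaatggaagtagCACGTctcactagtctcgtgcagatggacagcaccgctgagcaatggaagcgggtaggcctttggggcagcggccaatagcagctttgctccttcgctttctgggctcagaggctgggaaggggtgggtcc
Slc16a1: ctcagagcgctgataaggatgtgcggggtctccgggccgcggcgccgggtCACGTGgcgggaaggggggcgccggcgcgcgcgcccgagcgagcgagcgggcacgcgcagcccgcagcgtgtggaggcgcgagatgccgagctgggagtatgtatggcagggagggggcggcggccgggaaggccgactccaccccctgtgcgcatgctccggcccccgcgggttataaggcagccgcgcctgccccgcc

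Slc16a3 holds 2 ACGTG motifs close to its start, Pgk1 holds the motif once on each strand, and Ldha holds 2 CACGTG boxes and 1 further CACGT near the start. Slc16a1 holds 1 CACGTG, and it did not pass in either comparison. Its RefSeq start was not found within a GENCODE transcript of the gene, while 26 of the 30 genes had theirs in one. Over all 30 listed genes, 17 (56.7%) hold ACGTG and 18 (60%) hold GCGTG in at least 1 promoter, against 24.2% and 47.4% of 11244 tested genes with a promoter. CACGTG was in 7 (23.3%) against 9.62%. Counted by promoter, since a gene can have several, ACGTG was in 21 of 46 (45.7%) against 16.6% of 32851. The share for ACGTG was 6 of the 10 genes that passed in a comparison and 11 of the 20 that did not. For GCGTG it was 6 of the 10 and 12 of the 20. Pdk1, Pfkl and Tpi1, which rose in both comparisons, have no ACGTG in this window. Pfkl holds 1 GCGTG, Pdk1 holds 1 at the first of its 2 starts, and Tpi1 holds neither core. These matches describe letters only, and no binding was measured.

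Genes around the pathway were read from 4 lists. Against untreated cells, 1.65% of all tested genes rose and 2.55% fell in siLuc, and 1.07% rose and 1.46% fell in siStag3. With 13 to 25 tested genes per list, the counts of 1 or 2 per direction are too small to be read as a result on a list. Of 21 tested genes for other isoforms, steps and transporters outside the 31, 1 rose in each comparison with untreated cells and 0 fell: embigin (Emb), an ancillary protein of the lactate transporters. It averaged 16.2 ± 2.46 CPM in untreated, 22.9 ± 3.32 in siLuc and 22.8 ± 1.74 in siStag3 cells, with log2 fold changes of 0.50 (SE 0.085, adjusted p 0.00713) and 0.50 (SE 0.0851, adjusted p 0.0072). Basigin (Bsg), the other such partner, had -0.02 (adjusted p 0.795) and -0.00 (adjusted p 0.986) and stood at 264.8 ± 21.2 CPM in untreated cells. Of 13 genes of pyruvate entry into mitochondria, the pyruvate dehydrogenase phosphatase Pdp2, which opposes the kinases, fell by 0.22 (SE 0.0535, adjusted p 0.0352) in siLuc and by 0.24 (SE 0.0535, adjusted p 0.028) in siStag3, on the log2 scale. Malic enzyme Me2 rose by 0.22 in siLuc (adjusted p 0.0439), and in siStag3 it had 0.21 (adjusted p 0.0677).

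Of 25 genes of the pentose phosphate, glycogen and gluconeogenesis branches, 0 passed in siLuc against untreated, and 1 rose in siStag3, the muscle fructose bisphosphatase Fbp2, by 0.54 (SE 0.123, adjusted p 0.0323). Of 20 oxygen-sensing, glucose-sensing and MYC factors, Mlxipl, which codes for the glucose-responsive factor ChREBP, fell by 0.51 in siLuc (SE 0.124, adjusted p 0.0391) and by 0.59 in siStag3 (SE 0.125, adjusted p 0.0239). Txnip, an inhibitor of glucose uptake, rose by 0.22 in siLuc (adjusted p 0.0435) and had 0.06 in siStag3 (adjusted p 0.645). Arnt2, a partner of the hypoxia-inducible factors, rose by 0.74 (SE 0.146, adjusted p 0.0158) and Epas1, which codes for one of their oxygen-sensing subunits, by 0.34 (SE 0.0801, adjusted p 0.0386) in siStag3 against untreated. In siLuc these had 0.46 (adjusted p 0.0784) and 0.19 (adjusted p 0.153). Hif1a itself had 0.27 (adjusted p 0.0507) and 0.14 (adjusted p 0.356). In siStag3 against siLuc, 0 genes of the 4 lists passed by edgeR.

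The 5 genes whose levels ran most like those of Slc16a3 over the 9 libraries, with the mean of each set removed, were Syt7 (Pearson r 0.99), Ddx58 (0.988), Igfbp3 (0.981), Snrpn (0.978) and A2m (0.977), among the 11228 genes whose log2 CPM averaged 1 or more. None of them is in the glycolysis list. Of these, A2m rose by 0.80 (adjusted p 0.000191) and 0.80 (adjusted p 9.96e-05) in siLuc and siStag3 against untreated, Igfbp3 by 0.46 (adjusted p 0.0186) and 0.48 (adjusted p 0.0142), and Ddx58, an innate sensor of viral RNA, by 0.36 (adjusted p 0.00594) and 0.37 (adjusted p 0.00557), while Syt7 had 0.35 (adjusted p 0.0791) and 0.33 (adjusted p 0.143) and Snrpn 0.10 (adjusted p 0.234) and 0.11 (adjusted p 0.322). The points share their libraries and the 3 group means, so the coefficients are a description.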

How the data were processed

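Poly(A) RNA of 9 libraries was measured by RNA-seq (KAPA mRNA HyperPrep, per the labels' protocols). The deposited table holds a whole-number count per Ensembl gene ID and library. Per the submitters' processing notes, FastQC, Salmon, DESeq2 and GRCm39 were used, with no versions or roles given, and the smallest row sum in the table was 9. Counts per gene from a transcript quantifier divide reads of near-identical genes by a model, which can move values between paralogs.

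From these counts, R 4.3.3 with edgeR 4.0.16 gave TMM factors, filterByExpr (14246 genes kept) and the quasi-likelihood F-test (robust) over all 9 libraries with terms for group and set, with Benjamini-Hochberg adjustment over all tested genes and a threshold of 0.05. Limma 3.58.1 was loaded with edgeR, and figures were drawn with matplotlib 3.10.9. The DESeq2 1.42.0 Wald test was an alternative. The others were DESeq2 size factors, total-count scaling, no filter on low counts, no set term, a GC correction (20 bins), only the libraries compared, Set 1 alone, each library left out in turn and, chosen after seeing the data, a set and experiment term. The edgeR fit was tested on simulated data. The limit that a count of 0 allows, 3 counts, corresponds to 0.0674 to 0.102 CPM.

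Levels per length used the APPRIS principal transcript of GENCODE M21, chosen after the lengths were seen, in place of the planned median length, which is kept as an alternative. Gene IDs of 16604 of the 16636 rows matched that annotation (GRCm38), so no coordinates are given for counted genes. Promoters are RefSeq's for GRCm38.p6. The genes named were all listed genes past the threshold and the leading isoform of each step. The members, the lists and the set term of the main fit were chosen with earlier results of these data known. In those results the set separated the libraries, and without the set term no listed gene passed.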

Additional observations from a re-analysis of the deposited data

How the results depend on the processing

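No paired analysis was possible because no column name holds a replicate number of the labels. The columns' own set and experiment numbers can serve as a block, with Set 3 as 1 level, and this term, chosen after seeing the data, passed 6 and 9 listed genes and 317 and 268 of all genes in siLuc and siStag3 against untreated, with Pgm1 in siLuc lost (adjusted p 0.0553). Of 288 values (16 results on single listed genes under 18 alternatives each), 247 kept direction and call, 41 kept direction only and 0 reversed. Slc16a3, Ldha, Pdk1 and Pfkl lost their call only without the set term, in both comparisons with untreated cells, where the biological coefficient of variation was 14.6% in place of 7.62%. Listed genes past the threshold, 7 in siLuc and 9 in siStag3 against untreated, numbered 0 and 0 without the set term, 14 and 15 with the GC correction, and 5 to 14 and 5 to 12 with each library left out. Over all genes, siLuc against untreated passed 598 (1 without the set term, 1296 by DESeq2, 941 with GC correction, 1801 with only its 6 libraries, 298 in Set 1 alone, 111 to 2458 with each library left out, the lowest without the untreated library of Set 3 and the highest without the siStag3 library of Set 3). For siStag3 against untreated, 361 passed (2 without the set term, 989 with GC correction, 949 in Set 1 alone, 78 to 1591 with each library left out, the lowest without the siStag3 library of Set 1 experiment 1). For siStag3 against siLuc, 4 passed (22 by DESeq2, 0 without the set term, 72 with GC correction, 1 with only its 6 libraries, 0 to 4 with each library left out). With total-count scaling, 161 rose and 600 fell in siLuc against untreated (235 and 363 with TMM), and 100 rose and 256 fell in siStag3 against untreated (153 and 208 with TMM). Pgm1 in siLuc (adjusted p 0.056), and Pfkp (0.0782) and Slc2a1 (0.0941) in siStag3, lost their calls under this scaling. The cause was not tested. With 1 library per group, Set 3 alone gives values without a test.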
